A study of Mus musculus with 18 samples.

Results

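The comparison described here is the transcriptome of cortical endothelial cells after a stroke, in mice meant to lose Ezh2 from their endothelium against mice labelled wild type. Of the 18 libraries in the series, 6 enter it: 3 labelled MCAO-Ezh2 ECKO and 3 labelled MCAO, all from the ipsilateral side, the hemisphere of the occluded artery. MCAO stands for occlusion of the middle cerebral artery, which models stroke, and ECKO for an endothelial knockout. The knockout mice carried floxed Ezh2 alleles with Cdh5CreERT2, a tamoxifen-inducible Cre recombinase driven by the promoter of the endothelial cadherin gene Cdh5. Tamoxifen at 75 mg per kg is labelled for both groups, and the design text describes 5 doses from day 0 to day 4 and harvest on day 7 of the stroke. Whether the wild-type mice carried Cre or floxed alleles is not stated in the labels used here. Adult cells had been sorted for CD31, an endothelial surface protein, and against CD41 and CD45, which mark platelets and leukocytes. The labels do not say that each library came from its own mouse, so p-values measure the spread between these libraries, which may be technical. Of 21638 genes in the table, 17094 had a count of 10 or more in 3 or more of the 18 libraries and were tested. The other groups of 3 libraries (sham ipsilateral, sham contralateral, MCAO contralateral and MCAO-Hdac2 ECKO ipsilateral) shared the estimate of spread and serve below to place levels.

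Ezh2 is the methyltransferase of Polycomb repressive complex 2 (PRC2), which methylates a lysine of histone H3 and thereby keeps genes silent. Polycomb repressive complex 1 (PRC1) binds that mark and helps to hold the silent state, and Trithorax enzymes oppose it. In brain endothelium, canonical Wnt signalling through beta-catenin builds and maintains the blood-brain barrier, the sealed and transporter-rich vessel wall that a stroke damages.

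The libraries labelled Ezh2 ECKO had total counts of 38055895, 26343356 and 33339533, and the MCAO libraries 44344912, 51313194 and 40711581. Genes that define endothelium were abundant in all 6. Pecam1, the gene of CD31, stood at 198 to 276 CPM under the Ezh2 ECKO label and at 342 to 452 CPM in MCAO, and Cdh5 at 219.9 to 413 and 221 to 255 CPM. The summed level of 17 endothelial markers was nonetheless lower under the Ezh2 ECKO label, at 23665 to 34686 CPM against 37259 to 54676 CPM, without overlap. Ly6c1, at 2614 to 4312 against 9770 to 17722 CPM, and Ly6a, at 2093 to 3845 against 8327 to 13121 CPM, held most of that gap. Itm2a, also abundant, overlapped at 8988 to 15400 against 8699 to 12930 CPM. Slco1a4 was higher, at 3386 to 4841 against 2118 to 3140 CPM, without overlap. Of the 17, 10 lay below 0 in log2 fold change and 7 above, and the median was -0.48. Between groups 12 of the 17 did not overlap (8 lower and 4 higher), against 29.0% of all tested genes. The 2 called, Ly6c1 and Ly6a, were both lower. The part of this difference in the results was not tested. CPM is the depth-normalised read count of a gene (its count relative to the library total, as CPM by edgeR with TMM scaling), and it is not corrected for gene length. Across 7814 genes, log2 levels correlated at 0.916 to 0.955 between MCAO libraries and at 0.797 to 0.867 between Ezh2 ECKO libraries. Ezh2 ECKO replicate 2 stood apart. Olfactory and vomeronasal receptor genes, 1466 in number, are not known for a role in endothelium and served as a gauge of diffuse background. They took 2083 CPM, here without TMM scaling, in that replicate, 268 and 600 in the other Ezh2 ECKO libraries and 154 to 296 in MCAO. Gm10800, a predicted gene, took 8.62% of the counts of Ezh2 ECKO replicate 2.

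The targeted gene was examined first. Ezh2 lies on the minus strand of chromosome 6 (GRCm38, 47530139 to 47595341). Under the Ezh2 ECKO label it measured 12.0, 19.7 and 8.41 CPM, and in MCAO 4.45, 7.02 and 7.85 CPM. The groups did not overlap, and the labelled knockout was the higher one, opposite in direction to a loss of the transcript. The difference did not pass the test, with a log2 fold change of 1.05 ± 0.86 (SE) and an adjusted p of 0.485 by edgeR's quasi-likelihood test. The deposited value covers the whole gene, and exons outside the floxed stretch can still be transcribed, so it does not check the deletion. For that reason Ezh2 ECKO denotes the label of a library throughout.

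Across the transcriptome, 250 of the tested genes passed an adjusted p under 0.05 (edgeR), which is 1.46%. Of these, 39 were higher (0.228% of all tested) and 211 lower (1.23%) in the libraries labelled Ezh2 ECKO. Such genes are named as called, risen or fallen below. At an unadjusted p under 0.05 there were 3287 genes, 19.2%. DESeq2 called 1642 of the 17094 tested genes and limma voom 205, and counts by these tools in the lists below stand beside those totals. The libraries of one group lay wholly above or below those of the other for 29.0% of all tested genes and for 249 of the 250. The median log2 fold change was 1.51 among the 39, -2.53 among the 211 and 0.17 over all tested genes. With RLE scaling in place of TMM the split was 119 higher and 249 lower, and the median of all tested genes moved to 0.36.

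The number of calls depended on single libraries and on settings. It was 40 without Ezh2 ECKO replicate 2, 8 without Ezh2 ECKO replicate 3, 5 without MCAO replicate 1 and 5 without MCAO replicate 2, but 183 and 280 without Ezh2 ECKO replicate 1 and MCAO replicate 3. Of the 40 called without Ezh2 ECKO replicate 2, 29 were among the 250. Directions moved less: 247 of the 250 kept theirs in each of the 18 alternatives that they entered, and the exceptions Myef2, Rassf9 and St8sia4 turned below 0 with the GC trend described further on removed. Atp5md, Gm50387, Rbis and Tle5 had no GC content and so no value with that trend removed, and the globins were not in the fit that leaves them out. The 4 globin genes and Tm6sf2 passed in every alternative they entered.

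**Figure D1:**
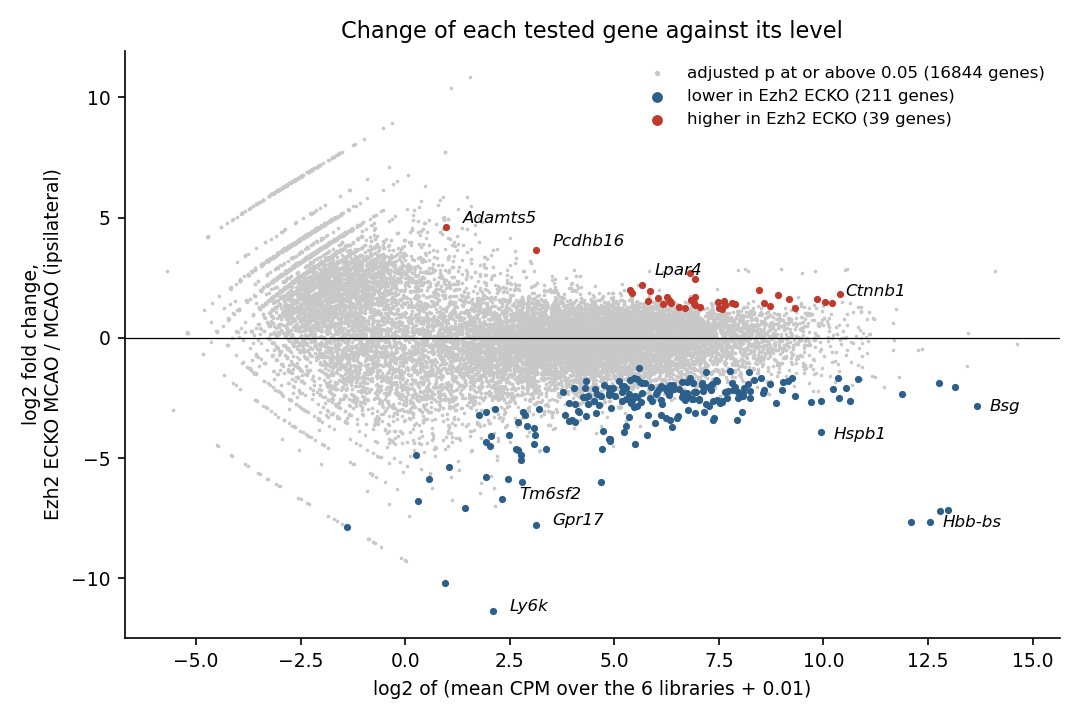
Each point is 1 tested gene. The x axis is the log2 of its mean CPM over the 6 libraries plus 0.01, and the y axis is its log2 fold change, Ezh2 ECKO over MCAO. The 39 higher genes are red, the 211 lower genes blue and the rest grey, and the lower calls, the globin gene Hbb-bs among them, extend much further from 0 than the higher calls.

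PRC2 as a whole gave no call. Of 13 tested core and accessory members, Ezh2 included, 0 passed, 7 had a log2 fold change above 0 and the median was 0.52 (55.4% of all tested genes lay above 0). At an unadjusted p under 0.05 there were 3 of the 13, and DESeq2 called 1 (higher) and limma voom 0. Suz12, which holds the core together, measured 91.6, 183 and 84.7 CPM under the Ezh2 ECKO label and 65.1, 45.0 and 64.6 CPM in MCAO (adjusted p 0.216, edgeR). Eed, which reads the methyl mark, was at 75.7 ± 48.2 and 79.4 ± 4.68 CPM (SD, n = 3 each), with Ezh2 ECKO replicate 1 above and the other Ezh2 ECKO libraries below every MCAO library. Jarid2 and Aebp2, accessory proteins of PRC2, had log2 fold changes of 1.01 and 0.85 with adjusted p of 0.265 and 0.182 (edgeR). With the GC trend removed, the median of the 13 was -0.11.

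Among partners and opponents of PRC2, Bmi1 and Kmt2c rose. Bmi1, a core subunit of PRC1 (chromosome 2, 18677018 to 18686629, plus strand), measured 197, 170.4 and 141 CPM under the Ezh2 ECKO label and 47.2, 53.9 and 70.1 CPM in MCAO. The ranges lay well apart, and the log2 fold change was 1.57 ± 0.39 with an adjusted p of 0.0475 (edgeR). It was the 1 call among 19 tested PRC1 members (5.26%, against 1.46% of all tested genes). Of the 19, 8 lay below 0, and the median log2 fold change was 0.10, against 0.17 over all tested genes. For Bmi1 the log2 fold change was 0.62 with the GC trend removed (adjusted p 0.446, edgeR). Kmt2c, a Trithorax-type methyltransferase of histone H3 (chromosome 5, 25271798 to 25498783, minus strand), measured 165, 97.9 and 176 CPM against 61.9, 58.2 and 64.2 CPM. Its log2 fold change was 1.25 ± 0.30 (adjusted p 0.0434, edgeR), and it was the 1 call among 11 tested demethylases and Trithorax enzymes (9.09%). Of the 11, 7 lay above 0, with a median of 0.39.

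Classical developmental targets of Polycomb stayed near the floor in both groups. Of 34 such genes in the table, among them Hox, Gata and Pax members, 12 reached the count filter and 0 of these passed (2 at an unadjusted p under 0.05 and 1 by DESeq2, median log2 fold change 0.16). Hoxa7, Hoxa9, Hoxb3 and Hoxb7 were at or under 0.23 CPM in each of the 6 libraries, where 3 counts correspond to 0.0585 to 0.114 CPM without TMM scaling. Tbx3 and Cdkn1c, members with sizeable expression, measured 83.1 to 105 and 54.1 to 74.8 CPM under the Ezh2 ECKO label. In MCAO they measured 49.6 to 57.8 and 94.4 to 137 CPM, without overlap for either gene, and neither passed (adjusted p 0.179 and 0.252, edgeR).

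Genes of canonical Wnt signalling held more higher calls than any other list examined. Of 28 tested members 4 rose and 0 fell, and the median log2 fold change was 0.66. Ctnnb1, the gene of beta-catenin, the transcriptional effector of the pathway (chromosome 9, 120929216 to 120960507, plus strand), measured 1883, 1287 and 2032 CPM under the Ezh2 ECKO label. In MCAO it measured 612, 464 and 851 CPM, so that the lowest Ezh2 ECKO library exceeded the highest MCAO library. The log2 fold change was 1.43 ± 0.31 with an adjusted p of 0.0324 (edgeR).

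The other Wnt calls act at the receptors or are known targets of the pathway. Tspan12, the tetraspanin that strengthens Norrin signalling through the receptor Fzd4, measured 376, 229 and 429.7 CPM against 134, 142 and 117 CPM (log2 fold change 1.39 ± 0.31, adjusted p 0.0356, edgeR). Reck, the membrane protein through which endothelial cells receive Wnt7 ligands, measured 193, 127 and 207 CPM against 67.0, 73.6 and 66.0 CPM (log2 fold change 1.35, adjusted p 0.0434, edgeR). Tnfrsf19, a receptor described as a Wnt target, measured 233, 219 and 317 CPM against 101, 72.3 and 153 CPM, and its adjusted p of 0.0499 (edgeR) was just inside the threshold. The groups did not overlap for any of them. Tspan12 was at a log2 fold change of 0.48 with the GC trend removed (adjusted p 0.597, edgeR). Reck and Tnfrsf19 were named after their values were seen.

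The remaining Wnt genes did not pass. Fzd4 was at 117, 55.2 and 99.1 CPM against 135, 136 and 70.3 CPM, and these ranges overlap. Lef1, a DNA-binding partner of beta-catenin, was at 1527, 388 and 1199 CPM against 322, 316 and 492 CPM, with Ezh2 ECKO replicate 2 inside the MCAO range and an adjusted p of 0.0991 (edgeR). Axin2 and Apcdd1, feedback inhibitors that the pathway switches on, had log2 fold changes of 0.80 and 0.99 and adjusted p of 0.324 and 0.132 (edgeR). Summed over the list, Wnt genes reached 3657 to 6040 CPM under the Ezh2 ECKO label, 2199 to 2829 CPM in MCAO and 3371 to 3967 CPM in sham ipsilateral. The median of the list stayed between 0.43 and 0.83 over all alternatives. None of its members was called without Ezh2 ECKO replicate 1 or 3, without MCAO replicate 1 or 2, with the GC trend removed or with the receptor background as covariate.

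**Figure D2:**
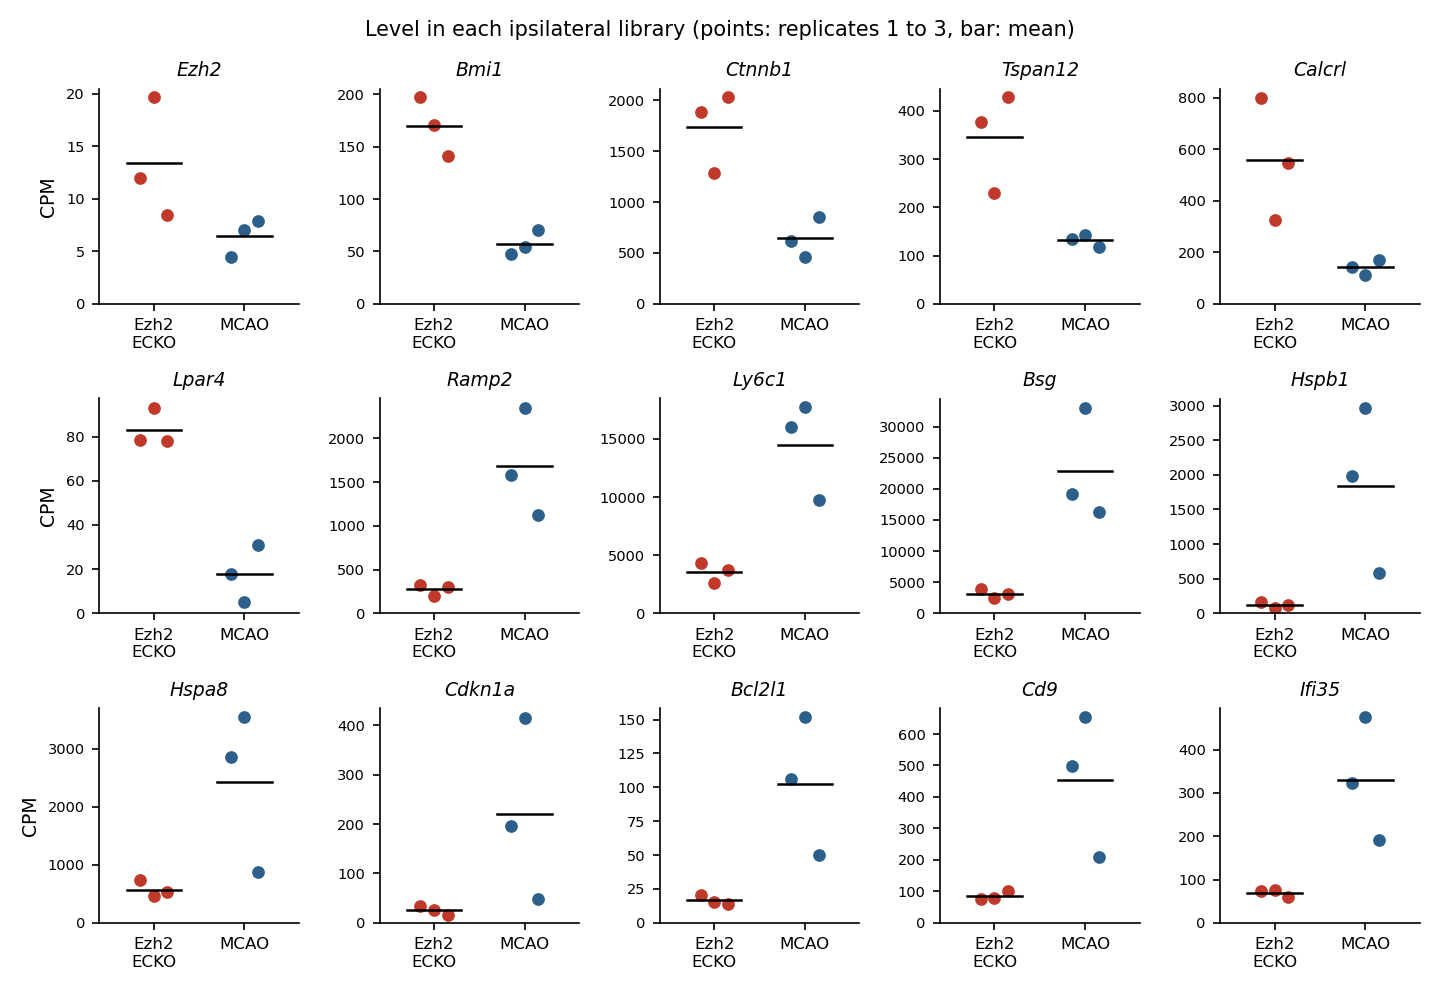
CPM on the y axis of 15 genes in each of the 3 Ezh2 ECKO and 3 MCAO ipsilateral libraries, with the group mean as a bar and each axis starting at 0. The groups do not overlap in any panel, and Ezh2 is the 1 gene shown that did not pass the test.

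Calcrl rose and its partner fell. Calcrl, the receptor for adrenomedullin (chromosome 2, 84330626 to 84425411, minus strand), measured 799, 324 and 547 CPM under the Ezh2 ECKO label and 143, 112 and 170.3 CPM in MCAO (log2 fold change 1.97 ± 0.43, adjusted p 0.0324, edgeR). Its required partner Ramp2, named after its values were seen, went the other way, at 328, 195 and 299.6 CPM against 1579, 2347 and 1124 CPM (log2 fold change -2.62 ± 0.54, adjusted p 0.0291, edgeR). Neither gene overlapped between groups, and the Ezh2 ECKO levels of Ramp2 were below all 15 other libraries of the series. The log2 fold change of Calcrl was 0.88 with the GC trend removed (adjusted p 0.528, edgeR).

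Lpar4, a receptor for lysophosphatidic acid with a role in vessel formation (chromosome X, 106920625 to 106933900, plus strand), measured 78.6, 92.9 and 78.0 CPM against 17.8, 5.05 and 31.0 CPM. The Ezh2 ECKO values were tight and above those of all 15 other libraries, and the log2 fold change was 2.21 ± 0.50 (adjusted p 0.0361, edgeR). With the GC trend removed it was 0.66 (adjusted p 0.682, edgeR). Ly96, the partner of the toll-like receptor for bacterial lipopolysaccharide, measured 285, 106 and 226 CPM against 15.3, 19.9 and 79.6 CPM (log2 fold change 2.43). Adamts5, a protease of the extracellular matrix, had the highest fold change of all higher calls at 4.59 ± 1.04, but at a level of only 3.75 ± 3.65 against 0.153 ± 0.0938 CPM (SD, n = 3 each). The protocadherin Pcdhb16 measured 12.7, 12.0 and 23.8 CPM against 0.638, 1.85 and 1.39 CPM and was the 1 call among 54 tested clustered protocadherins. That share is 1.85%, against 1.46% of all tested genes, and the median of the 54 was -0.39.

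Other higher genes are given singly. Rapgef4, which activates the small GTPase Rap in response to cyclic AMP, measured 825, 641 and 760.5 CPM against 281, 129 and 238 CPM, again above all 15 other libraries. Its relative Rapgef2, named after its values were seen, rose too, at 382, 237 and 255 CPM against 122, 62.2 and 117 CPM (log2 fold change 1.54). Ogfrl1 measured 64.8, 65.7 and 67.1 CPM against 16.0, 10.9 and 22.9 CPM. These 3 genes did not overlap between groups. Auts2, a component of a variant PRC1, measured 92.5, 47.5 and 60.8 CPM against 17.4, 12.1 and 26.3 CPM (log2 fold change 1.85 ± 0.38, adjusted p 0.0291, edgeR) and was the 1 higher gene called with the GC trend removed. Mbtd1, a reader of methylated histones, rose by 1.94 on the log2 scale. Fut8 and St8sia4, glycosyltransferases of cell-surface proteins named after their values were seen, rose by 1.48 and 1.31. With the GC trend removed the log2 fold changes were 1.12 for Ogfrl1, 0.88 for Mbtd1, 0.93 for Fut8 and -0.39 for St8sia4, and none of these passed. Atp5md, a small subunit of mitochondrial ATP synthase, had the highest mean CPM among the higher calls, at 2096 ± 998 against 584 ± 105 CPM (SD, n = 3 each). Of the 93 tested nuclear genes of oxidative phosphorylation, Atp5md rose and Uqcrc1, a core subunit of complex III, fell by 2.75 on the log2 scale. These 2 calls are 2.15% of the list, against 1.46% of all tested genes.

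Regulators of endothelial identity gave no call. Of 19 tested endothelial transcription factors 0 passed by edgeR, while DESeq2 called 6 (all higher) and 9 had an unadjusted p under 0.05. Over all tested genes DESeq2 called 1642 of 17094, and 19.2% had an unadjusted p under 0.05 by edgeR. Of the 19, 15 lay above 0, and the median log2 fold change was 0.68. Ets1, a factor that drives endothelial genes, was at 576, 266 and 699 CPM against 237, 152 and 261 CPM, and Foxc1 at 333, 274 and 260.4 against 135, 102 and 184 CPM (adjusted p 0.0651 and 0.0661, edgeR). Sox18 differed in the other direction, at 233, 109 and 163 CPM against 300.1, 548 and 238 CPM. Among 26 tested genes of VEGF signalling and tip cells 0 were called by edgeR, 6 by DESeq2 and 1 by limma voom, 8 had an unadjusted p under 0.05, and the median was 0.13. Kdr, the main VEGF receptor, was nearest to the threshold of these, at 580.1, 395 and 504 CPM against 140.4, 155 and 293 CPM (log2 fold change 1.33 ± 0.34, adjusted p 0.0527, edgeR). Among 18 tested Notch genes and 25 genes of BMP and TGF-beta signalling 0 were called by edgeR, 2 and 7 by DESeq2, and 4 and 8 had an unadjusted p under 0.05. Id1 and Id3, targets of BMP signalling, were at 372 to 597 and 507 to 919 CPM under the Ezh2 ECKO label. In MCAO they were at 1106 to 1957 and 1973 to 3529 CPM, without overlap (adjusted p 0.0577 and 0.0524, edgeR).

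**Figure D3:**
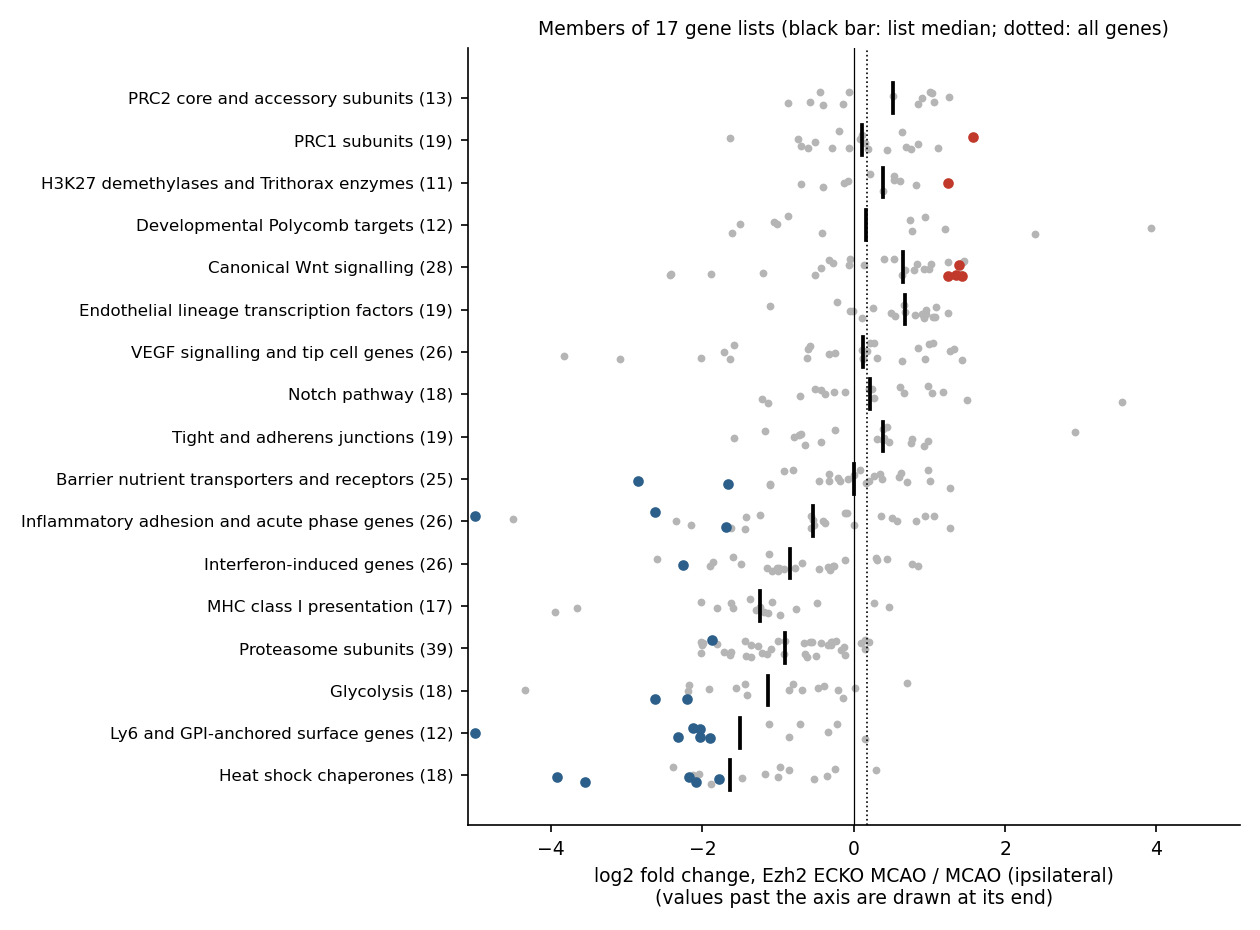
Each point is a tested member of 1 of 17 gene lists, with its log2 fold change (Ezh2 ECKO over MCAO) on the x axis. Black bars are list medians, the dotted line is the median of all tested genes at 0.17, red and blue mark higher and lower calls, and 2 genes past the axis, Ly6k and Lcn2, are drawn at its end. The 4 higher calls of the Wnt list lie to the right, and the 6 lower calls of the Ly6 list and 5 of the heat shock list to the left.

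Genes of the barrier itself were divided. Of 19 tested junction genes 0 passed by edgeR and 2 by DESeq2, with 5 at an unadjusted p under 0.05 and a median log2 fold change of 0.39. Cldn5, the main claudin of brain vessels, was at 802, 349 and 558 CPM against 1376, 2369 and 1354 CPM, without overlap (log2 fold change -1.58 ± 0.56, adjusted p 0.138, edgeR). Tjp1, a scaffold of the same junctions, was at 688, 571 and 657 CPM against 407, 277 and 324 CPM (log2 fold change 0.93, adjusted p 0.118, edgeR). Of 25 tested nutrient transporters and receptors 2 fell and 0 rose.

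Both fallen transporter genes encode partner chains. Bsg, or basigin, which escorts monocarboxylate transporters to the membrane (chromosome 10, 79704491 to 79711969, plus strand), measured 3876, 2486 and 3157 CPM against 19168, 32979 and 16267 CPM. It had the highest MCAO mean of the 211 lower genes, and its log2 fold change was -2.85 ± 0.66 with an adjusted p of 0.0379 (edgeR). Slc16a1, a monocarboxylate transporter it escorts, was at 1128, 799 and 1654 CPM against 507, 645 and 1177 CPM, with overlap. Slc3a2, the heavy chain of amino acid transporters (chromosome 19, 8706882 to 8723369, minus strand), measured 179, 122 and 223 CPM against 529, 719 and 415 CPM (log2 fold change -1.67 ± 0.36, adjusted p 0.0324, edgeR). Its light chain Slc7a5 was at 152 to 268 against 273 to 315 CPM and did not pass (adjusted p 0.432, edgeR). Slc2a1, the glucose transporter, was at 674 to 944 against 1195 to 2391 CPM (adjusted p 0.0793, edgeR), and Tfrc, the transferrin receptor, at 905 to 1194 against 256 to 685 CPM (adjusted p 0.0618, edgeR). Neither overlapped, and they lay on opposite sides of 0.

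Small lipid-anchored surface proteins of the Ly6 family and their relatives held 6 lower calls and 0 higher calls among 12 tested members, with a median log2 fold change of -1.51. Ly6c1, a marker of capillary endothelium (chromosome 15, 75044018 to 75048830, minus strand), measured 4312, 2614 and 3724 CPM under the Ezh2 ECKO label and 16050, 17722 and 9770.1 CPM in MCAO. The Ezh2 ECKO libraries were below all 15 others of the series, and the log2 fold change was -2.03 ± 0.42 (adjusted p 0.0291, edgeR). Ly6a, known as Sca-1 (chromosome 15, 74994877 to 74998031, minus strand), measured 3845, 2093 and 2938 CPM against 11613, 13121 and 8327 CPM (log2 fold change -1.90 ± 0.40).

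The remaining calls of this list moved the same way. Ly6c2 and Ly6e fell, with log2 fold changes of -2.12 and -2.33, and so did Cd59b, an inhibitor of complement, with -2.04. Ly6e and Cd59b were named after their values were seen. On the minus strand of chromosome 15 (74796874 to 74799986), Ly6k was without a count in the 3 Ezh2 ECKO libraries (0 counts each). It had 508, 605 and 24 in MCAO. Its group mean was at least 102-fold lower when 3 counts in each library are taken as the floor. MCAO replicates 1 and 2 carried that mean, at 11.6 and 13.4 CPM, against 0.574 CPM in replicate 3. Ly6c1 and Ly6c2 are near-identical copies and Cd59b has a related copy, Cd59a, so how reads divided within each pair is uncertain. Summed over the list, the level was 6611 to 11372 CPM under the Ezh2 ECKO label, 25248 to 43484 CPM in MCAO and 12126 to 14631 CPM in sham ipsilateral. The median of the list stayed between -2.06 and -1.07 over all alternatives. None of its members was called without Ezh2 ECKO replicate 2 or 3, without MCAO replicate 1 or 2, with the GC trend removed or with the receptor background as covariate.

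Heat shock chaperones, which refold damaged proteins and are induced by stress, held 5 lower calls and 0 higher calls among 18 tested members. Of the 18, 17 lay below 0, and the median log2 fold change was -1.63. Hspb1, a small stress-induced chaperone (chromosome 5, 135887919 to 135889563, plus strand), measured 168, 80.8 and 115 CPM against 1986, 2961 and 588 CPM. Even the lowest MCAO library lay above the highest Ezh2 ECKO library, and the log2 fold change was -3.93 ± 0.74 (adjusted p 0.0248, edgeR). Stip1, the adaptor that passes clients from one chaperone to the next (chromosome 19, 7020702 to 7039967, minus strand), measured 18.3, 4.84 and 6.49 CPM against 87.6, 227 and 32.4 CPM (log2 fold change -3.55 ± 0.71, adjusted p 0.0291, edgeR).

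The general chaperones of the cytosol, named after their values were seen, fell as well. Hspa8 measured 736, 459.9 and 522 CPM against 2861, 3545 and 881 CPM (log2 fold change -2.08 ± 0.42). Hsp90ab1 and Hsp90aa1 fell, with log2 fold changes of -2.17 and -1.78, and Hsp90ab1 has pseudogenes with which reads may be shared. Ahsa1 and Hspbp1, partners of these chaperones outside the list, fell too (-2.50 and -4.62). The chaperones of the endoplasmic reticulum did not pass: Hspa5 was at 104 to 200.1 against 257 to 372 CPM, and Hsp90b1 at 243 to 459 against 366 to 527 CPM. The inducible pair Hspa1a and Hspa1b, near-identical copies, had log2 fold changes of -2.13 and -2.38 with adjusted p of 0.0619 and 0.0912 (edgeR).

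MCAO replicate 3 was the lowest MCAO library for each of the 5 called chaperones. The summed list stood at 1908 to 3178 CPM under the Ezh2 ECKO label, at 3680 to 13022 CPM in MCAO and at 2663 to 3087 CPM in sham ipsilateral. The median of the list stayed between -1.89 and -1.09 over all alternatives. None of its members was called without Ezh2 ECKO replicate 2 or 3, without MCAO replicate 1 or 2, with the GC trend removed or with the receptor background as covariate.

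Heat shock factor binds repeats of GAA and its complement TTC, and promoter windows of chaperones are shown because the list lay almost wholly on one side of 0. The pattern GAANNTTC, which reads the same on both strands, was searched in windows of 300 bases from RefSeq (250 before to 50 after the start, GRCm38.p6). It was present in 8 of 14 chaperone windows (57.1%) and in 6.77% of the 13227 windows of tested genes. It was present in 0 of 30 windows of higher genes and in 7 of 166 windows of lower genes (4.22%). A match describes letters and does not show binding. The 200 bases before the start follow 5′ to 3′ for Hspb1 and for the inducible pair, with matches in capitals. They lie at chr5:135887719-135887918 on the plus strand and at chr17:34972157-34972356 and chr17:34959239-34959438 on the minus strand.
Hspb1: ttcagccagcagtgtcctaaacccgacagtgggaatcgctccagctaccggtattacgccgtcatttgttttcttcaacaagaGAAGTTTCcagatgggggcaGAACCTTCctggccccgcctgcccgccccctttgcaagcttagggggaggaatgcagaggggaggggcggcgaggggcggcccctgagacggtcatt
Hspa1a: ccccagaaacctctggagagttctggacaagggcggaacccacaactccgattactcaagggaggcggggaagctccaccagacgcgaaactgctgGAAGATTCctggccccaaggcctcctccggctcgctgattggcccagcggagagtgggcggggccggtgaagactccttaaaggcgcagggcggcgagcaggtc
Hspa1b: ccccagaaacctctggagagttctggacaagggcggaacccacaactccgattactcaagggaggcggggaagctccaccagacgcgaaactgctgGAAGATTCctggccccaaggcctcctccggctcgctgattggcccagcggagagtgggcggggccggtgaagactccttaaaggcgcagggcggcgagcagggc
The Hspb1 stretch holds 2 matches, and the one closer to the start begins 97 bases before it. Hspa1a and Hspa1b each hold 1 match, which begins 104 bases before the start, and their stretches differ at 1 of 200 bases. Of the 5 called chaperones 2 had a window, that of Hspb1 with matches and that of Stip1 with 0. No window was given for Hspa8, Hsp90aa1 and Hsp90ab1.

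Growth arrest, survival and inflammatory genes fell in small numbers. Cdkn1a, the p53-induced inhibitor of the cell cycle (chromosome 17, 29090976 to 29100727, plus strand), measured 34.7, 24.9 and 16.7 CPM against 196, 415 and 47.2 CPM (log2 fold change -3.11 ± 0.64, adjusted p 0.0291, edgeR). Bcl2l1, which protects cells from apoptosis (chromosome 2, 152780668 to 152831728, minus strand), measured 20.4, 15.0 and 14.2 CPM against 106, 152 and 50.1 CPM (log2 fold change -2.63 ± 0.44, adjusted p 0.0188, edgeR). The groups did not overlap for either gene. Cdkn1a and Ccnd3, a cyclin of the first gap phase that fell by 1.96, were the 2 calls among 25 tested cell cycle genes, and Bcl2l1 was the 1 call among 17 of the Bcl2 family.

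Of 26 tested inflammatory adhesion and acute phase genes 3 fell and 0 rose, with a median log2 fold change of -0.53. Lcn2, lipocalin 2, an acute phase protein (chromosome 2, 32384633 to 32388252, minus strand), measured 2.32, 0 and 0.0559 CPM against 58.2, 61.3 and 32.1 CPM, with a log2 fold change of -5.99, or -10.65 without Ezh2 ECKO replicate 1. Icam2, an adhesion molecule of resting endothelium, measured 71.8, 43.0 and 45.6 CPM against 337, 466 and 186 CPM (log2 fold change -2.62 ± 0.62, adjusted p 0.0426, edgeR). Nfkbia, the inhibitor that NF-kappaB induces and named after its values were seen, fell by 1.68. No range overlapped for these genes.

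Of 26 tested interferon-induced genes 1 fell, 21 lay below 0, and the median was -0.85. Ifi35 (chromosome 11, 101448407 to 101458698, plus strand) measured 72.3, 76.0 and 59.5 CPM against 324, 476 and 191 CPM, below all 15 other libraries, with a log2 fold change of -2.25 ± 0.41 (adjusted p 0.0208, edgeR). Of 17 tested genes of MHC class I presentation 0 were called by edgeR and 5 (all lower) by DESeq2. Of the 17, 9 had an unadjusted p under 0.05, 15 lay below 0 and the median was -1.24. The invariant chain B2m was at 11965, 2386 and 5997 CPM against 11504, 12932 and 21886 CPM and these ranges overlap (adjusted p 0.223, edgeR).

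Membrane and lysosomal genes included a pair of the calls with the smallest adjusted p. Cd9, a tetraspanin of adhesion and vesicle release (chromosome 6, 125460266 to 125494791, minus strand), measured 76.9, 78.1 and 99.9 CPM against 499, 654 and 209 CPM (log2 fold change -2.42 ± 0.43, adjusted p 0.0208, edgeR). Lamp1, the main glycoprotein of the lysosomal membrane (chromosome 8, 13159161 to 13175338, plus strand), measured 53.6, 66.3 and 48.0 CPM against 186, 305 and 164 CPM (log2 fold change -1.96 ± 0.34, adjusted p 0.0208, edgeR). Both were below all 15 other libraries. Of 21 tested tetraspanin and lysosomal membrane genes they were the 2 lower calls, and Tspan12 was the 1 higher call. The proton pump subunits Atp6v0b and Atp6v0c had log2 fold changes of -1.93 and -2.60 and were the 2 calls among 21 tested.

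Housekeeping lists lay mostly below 0 with few calls. In glycolysis 2 of 18 tested genes fell, Gapdh (-2.21) and Aldoa (-2.62), and 16 lay below 0, with a median of -1.14. Gapdh has many pseudogenes, so its counts are uncertain. Of 39 tested proteasome subunits 35 lay below 0 (median -0.90), and Psmc4 fell by 1.88. Of 78 mitochondrial ribosomal proteins 64 lay below 0 (median -0.64), and Mrpl4 fell by 2.62. Of 79 cytosolic ribosomal proteins 1, Rplp0, was called, and the median of -0.14 differed little from 0. Called shares were 2.56% of the proteasome, 1.28% of the mitochondrial ribosomal and 1.27% of the cytosolic ribosomal genes, against 1.46% of all tested genes. Mt2, a metal-binding stress protein, Anxa2, a membrane-binding protein that activates fibrinolysis, and Cavin3, a caveolar coat protein, fell, with log2 fold changes of -2.25, -2.10 and -2.54.

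Further lower calls shared roles that were grouped only after their values were seen. No count over all genes of these roles was made, and the choice from the lower calls fixes their direction. Of the 10 genes of the actin and microtubule cytoskeleton named in this way, log2 fold changes ran from -3.44 to -1.72. Pfn1, profilin, which feeds actin monomers to growing filaments, measured 41.1, 30.2 and 53.7 CPM against 367, 784 and 203 CPM, and Cfl1, cofilin, which severs them, 266, 162 and 254 against 1455, 2137 and 742 CPM. Glutathione transferases Gstm1, Gstm2 and Gstp1 ran from -2.21 to -1.84, and the ferritin light chain Ftl1 was at 507, 436 and 377 CPM against 2533, 3522 and 2184 CPM, with a pseudogene that may share its reads. Tm6sf2, a membrane protein of lipid export (chromosome 8, 70072924 to 70080066, plus strand), had 4, 4 and 2 counts under the Ezh2 ECKO label against 576, 478 and 252 in MCAO (log2 fold change -6.69 ± 0.99, adjusted p 0.00380, edgeR). Lipt2, an enzyme of lipoate synthesis, had 0 counts against 210, 162 and 130, a group mean at least 45.9-fold lower at the same floor.

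The smallest adjusted p belonged to the globins of red blood cells. The 2 alpha-globin genes (Hba-a1, Hba-a2) and 2 beta-globin genes (Hbb-bs, Hbb-bt) together took 3.78%, 5.78% and 4.87% of the counts in the MCAO libraries. Under the Ezh2 ECKO label they took 0.0653%, 0.00932% and 0.0192%, with 95% Wilson intervals between 0.00896% and 0.0662% that cover counting error only. A two-sided exact permutation test of the share gave p = 0.1, the smallest that 3 against 3 libraries allow. Hba-a1, an alpha-globin (chromosome 11, 32283511 to 32284465, plus strand), measured 232, 27.1 and 77.7 CPM against 12409, 20543 and 14770 CPM. Its log2 fold change was -7.15 ± 0.88, and that of the beta-globin Hbb-bs was -7.67 ± 1.02 (adjusted p 0.000525 and 0.00115, edgeR). Each globin pair is near-identical, so how reads divided within it is uncertain. In a sorted bulk sample, fewer cells of a type and less RNA per cell cannot be told apart.

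Of 13 tested red cell genes 6 fell, the 4 globins and Alas2, the first enzyme of haem synthesis in red cells, among them. Of the 13, 9 lay below 0 and 4 above. Car2 was at 235, 124 and 188 CPM under the Ezh2 ECKO label against 106, 146 and 106 CPM in MCAO. Fech was at 32.3, 33.1 and 39.4 against 26.3, 34.2 and 22.2 CPM, and both overlap. Alas2 measured 0.377, 0.256 and 0 CPM against 7.57, 28.0 and 5.26 CPM. Summed over the list, the level was 253 to 993 CPM under the Ezh2 ECKO label, 38498 to 65841 CPM in MCAO and 19483 to 59267 CPM in sham ipsilateral. Nearly all of the MCAO sum came from the 4 globins. Leaving the 4 globins out before scaling left 205 calls, 203 of them among the 250.

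Markers of other cell types were compared in the same way. Platelet genes summed to 20.02 to 30.2 CPM under the Ezh2 ECKO label and to 39.0 to 42.5 CPM in MCAO, and Pf4, platelet factor 4, stood at 0.11 CPM in each Ezh2 ECKO library against 8.21 to 9.12 CPM. Itga2b, the gene of CD41, measured 29.4, 2.19 and 18.4 CPM under the Ezh2 ECKO label and 11.7, 12.4 and 16.8 CPM in MCAO, and Ppbp, a platelet chemokine, 0.0539, 14.8 and 0.112 CPM against 17.2, 14.0 and 10.7 CPM. Both overlap, and they made up most of the summed platelet level under the Ezh2 ECKO label. Of 8 tested platelet genes 3 lay above 0 and 0 were called (2 at an unadjusted p under 0.05). Microglial genes summed to 51.8 to 74.4 and 95.7 to 108 CPM, with Tmem119 at or under 0.18 CPM in all 6 libraries. The peripheral leukocyte list summed to 371 to 560 and 1274 to 2386 CPM, nearly all of it Ly6c2, which brain endothelium expresses too, while Cd3e was at or under 0.51 CPM. Most of its other members went the other way: of 14 tested 9 lay above 0, with a median log2 fold change of 1.84. Ptprc, the gene of CD45, measured 0.485, 6.57 and 3.05 CPM under the Ezh2 ECKO label and 0.319, 0.309 and 0.813 CPM in MCAO, with overlap. Neuronal genes summed to 48.4 to 89.0 and 136 to 196 CPM, mostly from Stmn2, with Rbfox3 at or under 0.22 CPM. Astrocyte, oligodendrocyte, pericyte and fibroblast sums overlapped between the groups. Olig2, Mog, Sox10 and Aldh1l1 were at or under 0.23 CPM in each library, and Pdgfrb at or under 1.05 CPM. Gpr17, a receptor of maturing oligodendrocytes, was the 1 call in the oligodendrocyte list, with 0, 6 and 2 counts under the Ezh2 ECKO label against 549, 1598 and 172 in MCAO. Apod, an apolipoprotein of perivascular cells, was the 1 call in the fibroblast list, at 293, 29.2 and 48.9 CPM against 623, 1045 and 782 CPM (log2 fold change -2.72, or -4.39 without Ezh2 ECKO replicate 1). The part of these cells in the results was not tested.

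The calls moved with the base composition and the length of the genes. The exons of the 39 higher genes had a median GC content of 43.0% and those of the 211 lower genes 54.5%, against 48.4% over all tested genes. Median exon lengths were 5599, 2178 and 4274 bases in the same order. In the tenth of genes with the lowest GC content the median log2 fold change was 2.05, with 6 higher and 0 lower calls. In the tenth with the highest GC content it was -0.73, with 0 higher and 52 lower calls. Across 16965 genes, which are not independent replicates, Spearman's rho between GC content and log2 fold change was -0.47. Between exon length and log2 fold change over 17094 genes it was 0.23. Over the 8304 genes with a mean of 10 CPM or more in at least 1 of the groups, rho was -0.44 for GC content and 0.44 for length. With a trend on GC content removed from each library, 8 genes were called: Auts2, Lipt2, Tm6sf2, Utp15 and the 4 globins. Among lower genes named above, log2 fold changes became -1.16 for Ccnd3, -1.19 for Atp6v0b, -1.20 for Gstp1 and -1.76 for Ftl1. With the receptor background as a covariate 13 were called, 11 of them among the 250. Its log2 fold changes were nearer to 0 by over 1.5 times, from -2.71 to -1.02, for Hspbp1, Hspb1, Pfn1, Ftl1, Ahsa1, Aldoa, Ramp2, Uqcrc1, Bsg, Cavin3, Icam2, Mt2, Gapdh, Anxa2, Atp6v0c, Rplp0, Gstm2, Gstp1 and Nfkbia, and Mbtd1 was at 1.18. Of 1064 tested receptor genes 1053 lay above 0, with a median log2 fold change of 2.92 and 0 calls by edgeR (29 by DESeq2, 191 at an unadjusted p under 0.05). Their median GC content was 38.2%, within the range of the tenth with the lowest GC content (30.9% to 39.5%).

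**Figure D4:**
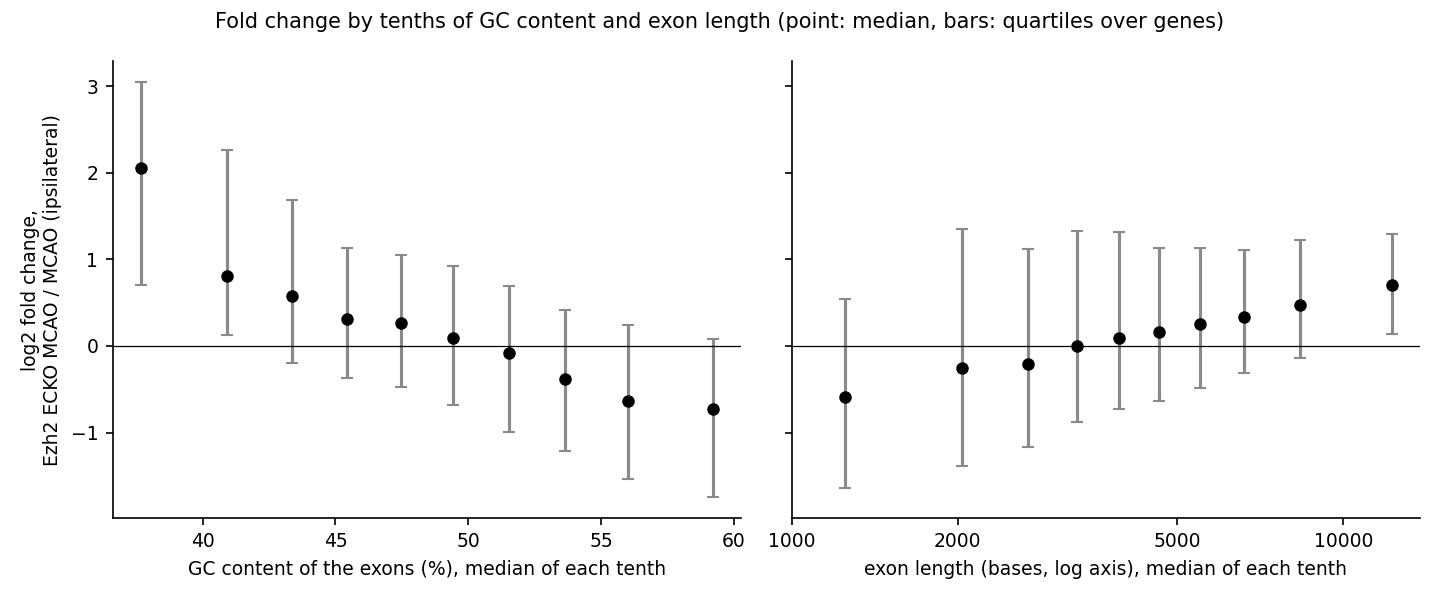
Median log2 fold change (Ezh2 ECKO over MCAO, y axis) with quartiles in bins of equal size over all tested genes, by exon GC content (percent) and by exon length (bases, log axis). The median falls from 2.05 to -0.73 along GC content and climbs from -0.58 to 0.70 along length.

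Setting the calls in the whole series shows on which side the MCAO libraries stood. For 206 of the 211 lower genes the Ezh2 ECKO mean was the lowest of the 6 group means (22.5% of all tested genes), and for 160 the MCAO ipsilateral mean was the highest (18.7%). The Ezh2 ECKO libraries lay below all 15 others for 73 of the 211 (0.883% of all tested genes). For 37 of the 39 higher genes the Ezh2 ECKO mean was the highest (29.5%), and for 27 the MCAO ipsilateral mean was the lowest (23.5%). The Ezh2 ECKO libraries lay above all 15 others for 11 of the 39 (0.649%). Since MCAO and Ezh2 ECKO libraries chose these genes, their own positions are a description. The median level of the 211 was 19.0 CPM under the Ezh2 ECKO label, 106 CPM in MCAO ipsilateral and 39.6 CPM in sham ipsilateral. That of the 39 was 188, 64.0 and 107 CPM. In Hdac2 ECKO these medians were 51.4 and 113 CPM, between those of Ezh2 ECKO and MCAO ipsilateral. Only 15 of the 211 and 0 of the 39 passed the test between Ezh2 ECKO and Hdac2 ECKO (edgeR). Bcl2l1 averaged 16.5 CPM under the Ezh2 ECKO label and 19.2 CPM in Hdac2 ECKO, Ccnd3 34.4 and 35.9, and Auts2 67.0 and 80.4.

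**Figure D5:**
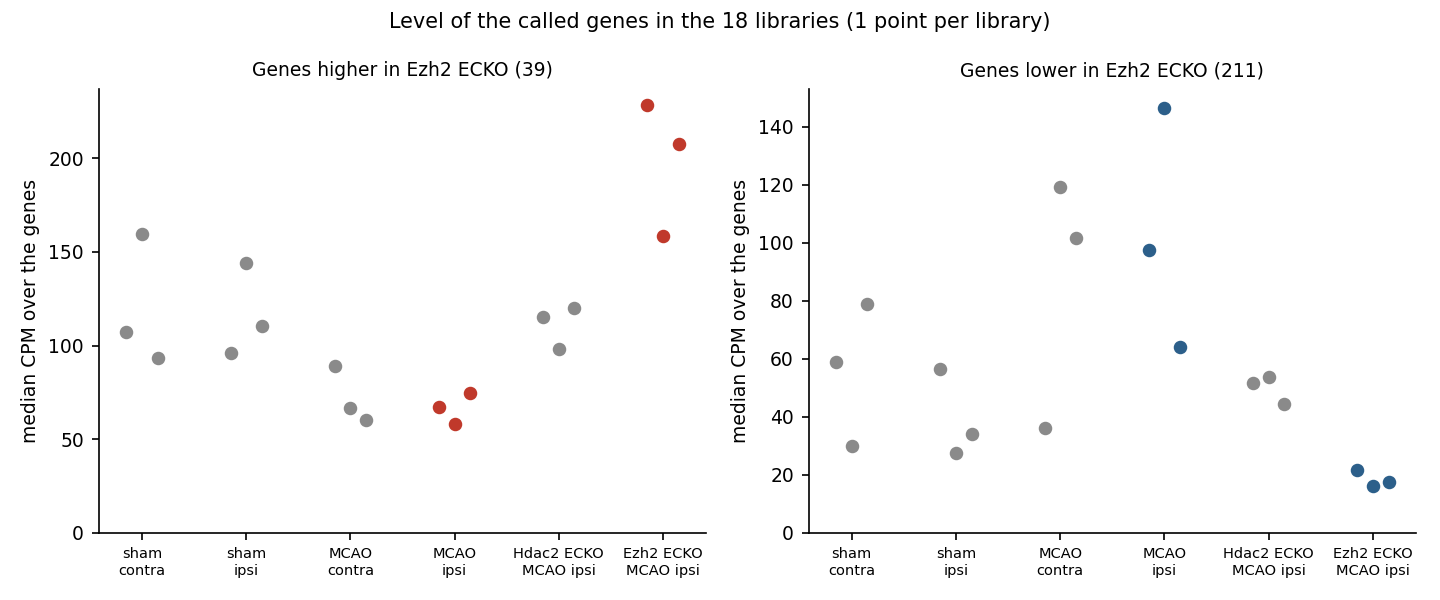
Median CPM (y axis) over the 39 higher and the 211 lower genes in each of the 18 libraries, by group. The lower genes sit at 16.0 to 21.5 CPM in the 3 Ezh2 ECKO libraries and at 27.5 CPM or above in the other 15, while the higher genes sit at 58.2 to 74.7 CPM in MCAO ipsilateral.

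Compared with the other deletion after the same occlusion, the Ezh2 ECKO libraries differed from the Hdac2 ECKO libraries in 21 genes (0.123% of those tested), 1 higher and 20 lower, by edgeR at an adjusted p under 0.05. Mipol1, named after its values were seen, was the higher one, with a log2 difference of 3.63. The 4 globins were among the lower ones, and their share of counts in the Hdac2 ECKO libraries was 19.9%, 19.5% and 5.41%. Of the 21, 15 were also among the 250, and both comparisons share the Ezh2 ECKO libraries. The count was 73, 12 and 9 without Ezh2 ECKO replicate 1, 2 and 3, 11 without Hdac2 ECKO replicate 1 and 11 without replicate 2. With the globins left out before scaling it was 3.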

How the data were processed

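RNA of sorted cortical endothelial cells was measured in 18 libraries, 3 in each of 6 groups taken from the labels. The authors' deposited table holds whole-number counts per gene that are not scaled, although it is named as normalized: column totals differ, and 77.3% to 89.4% of the counts from 1 to 20 are even, as when both mates of a pair are counted. FastQC, cutadapt, STAR, featureCounts, DESeq2 and mm10 are named, per the submitters' processing notes, and their settings are not given in the sources used here. How strand was counted is not stated, so overlapping genes are uncertain. Totals of the 6 libraries ran from 26343356 to 51313194.

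Genes with 10 or more counts in 3 or more libraries were tested with edgeR 4.0.16 (R 4.3.3): TMM scaling, 6 group means over all 18 libraries without a block, quasi-likelihood test, Benjamini-Hochberg adjustment over 17094 genes, threshold 0.05. The SE is the absolute log2 fold change over the root of F. CPM carries TMM factors. The globin share was compared by a two-sided exact permutation test. The fits were tested on simulated data. These held no GC trend, receptor background or library standing apart, so the simulation does not address how calls depend on them. Of 21638 genes, 21442 matched GENCODE M21 (GRCm38), the source of exon GC content, taken from the longest transcript. Exon length and gene coordinates came from the deposited table.

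Alternatives were RLE and upper-quartile scaling, DESeq2 1.42.0, limma 3.58.1 voom, other filters, a fit of the 2 groups alone, a replicate block, counts divided by 2, the receptor background as covariate, a GC trend removed from each library, each replicate left out and, chosen after seeing the data, globins left out before scaling. Named genes are Ezh2 and PRC2 subunits, the 10 calls highest and lowest in fold change with a mean count of 50 or more in a group and no overlap, up to 2 calls from each of 49 lists, and the 10 calls of smallest adjusted p, with predicted genes passed over. Calls that met this rule but are not described above are Chchd10, Cfap126, Sys1, Pim3, Nr1h2 and Ier3. All were lower, with log2 fold changes of -7.07, -6.79, -2.92, -2.63, -2.26 and -1.76. With the GC trend removed Pim3, Nr1h2 and Ier3 were at -1.52, -1.15 and -1.22. Other list members are given with values as examples. Members, lists and rule were chosen with earlier results of these data known.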

Additional observations from a re-analysis of the deposited data

Results flagged for a closer look

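The Ezh2 ECKO libraries and the Hdac2 ECKO libraries, both from the ipsilateral side after occlusion, differed in 21 genes when the difference itself was tested with edgeR (adjusted p under 0.05). Among the named genes, the log2 difference, Ezh2 ECKO minus Hdac2 ECKO, was -9.34 for Hba-a2, -9.14 for Hba-a1, -9.54 for Hbb-bs and -9.56 for Hbb-bt, the globins of red cells. It was -6.65 for Tm6sf2, -9.58 for Lipt2, which had 0 counts in the Ezh2 ECKO libraries so that the fitted value depends on the prior count, and -2.22 for the tetraspanin Cd9. With 3 libraries a group, no single library was tested for standing apart.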

How the results depend on the processing

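Counts of called genes moved with the processing, and the cause was not tested. Against MCAO, the 250 calls became 1642 by DESeq2, 433 with a filter on the 6 libraries compared, 422 with only these 2 groups in the fit, 428 with counts divided by 2, 13 with the receptor background as covariate and 8 with the GC trend removed. They ranged from 5 to 280 when 1 replicate was left out. RLE and upper-quartile scaling, limma voom, no filter and leaving out the globins gave 205 to 374. Against Hdac2 ECKO, the 21 calls became 659 by DESeq2, 9 by limma voom, 38 with no filter, 32 with counts divided by 2, 54 with the background covariate, 9 with the GC trend removed and 3 without the globins, and ranged from 9 to 73 when 1 replicate was left out. The Ezh2 level kept its direction and did not pass in any alternative. The globin share kept its direction, with a difference of -5.29 to -4.30 percentage points when 1 replicate was left out, and its permutation test cannot pass at this size.

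With a replicate block the counts were 12 and 9, and none was left in the Wnt, Ly6 and heat shock lists. Same-numbered Ezh2 ECKO and MCAO ipsilateral libraries deviated together little (correlations -0.12, -0.096 and 0.037). Between differently numbered libraries of these groups the correlations ran from -0.078 to 0.16. The check covered these 2 groups alone, so whether the numbers pair libraries across the other groups was not tested.

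Some PRC2 members changed sign. Eed, at -0.07, became 0.060 by RLE, 0.060 by DESeq2, 0.032 with no filter and 0.0097 with counts divided by 2, and ran from -0.72 to 0.23 with 1 replicate left out. Phf1, at -0.15, became 0.70 with the GC trend removed and ran from -0.83 to 0.19 with 1 replicate left out. With the GC trend removed Mtf2, at 0.52, became -0.77 and Lcorl, at 1.26, became -0.11. Depth limits genes such as the Hox genes, which had too few counts to be tested.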

Other observations

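Some gene groups outside the accounts above held no call or 1. Of 15 tested arterial genes 0 were called by edgeR and 5 by DESeq2 (6 at an unadjusted p under 0.05), and the median log2 fold change was 0.21. Of 13 tested venous genes Lcn2 was the 1 call, and the median was -0.53. Of 19 tested genes of the vascular basement membrane 0 were called by edgeR or DESeq2 (2 at an unadjusted p under 0.05), with a median of 0.10. Of 10 tested flow-responsive genes 0 were called by edgeR or DESeq2 (1 at an unadjusted p under 0.05), with a median of 0.04. Of 9 tested efflux pumps of the ABC family 0 were called by edgeR and 1 by DESeq2 (1 at an unadjusted p under 0.05), and 7 lay above 0. Of 387 tested zinc finger genes 234 lay above 0, with a median of 0.30. Zfp647 was the 1 call (0.258%), with 2, 8 and 0 counts under the Ezh2 ECKO label against 220, 149 and 158 in MCAO. Over all tested genes 55.4% lay above 0 and 1.46% were called.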
